A study of Mus musculus with 39 samples.

Results

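The genes described are 34 listed genes of the mitotic cell cycle, from the proliferation marker Mki67 to the CDK inhibitors Cdkn1a and Cdkn1b. The members were fixed by name, and each was read from the array probe set annotated with that single symbol, taking the one with the highest mean over all arrays where a gene had several. Such a probe set was found for 33 of the 34, out of 22180 genes with one. The 33 all passed the filter on dim probe sets and were among the 19007 genes tested, whereas Ccnb1 had no probe set of that kind and was not analysed here.

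RNA of whole mouse testis was hybridised to 39 Affymetrix arrays, 1 per animal, from 4 genotypes at 2 weeks and 2 months of age. The labels give wild-type littermates (WT, 8 mice at each age) and animals with floxed Prkar1a (Prkar1a fl/fl) combined with Sf1:Cre (prKO, 4 mice at 2 weeks and 3 at 2 months), Amh:Cre (srKO, 4 and 4) or Cyp11a1:Cre (lrKO, 4 and 4). Prkar1a encodes a regulatory subunit that restrains protein kinase A. The Sf1 promoter is active in the somatic precursors of gonad and adrenal cortex, that of Amh in Sertoli cells and that of Cyp11a1 in steroid-producing cells, so germ cells, which make up most of the dividing cells of a testis, are not the cells these promoters target. Values are log2 intensities, and a difference of 1 is a 2-fold difference. A gene was called when its limma p-value, adjusted by the Benjamini-Hochberg method over all genes tested, was under 0.05.

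Cells enter the cycle when D-type cyclins activate their kinases and release E2F factors, which switch on the genes of DNA replication. A later wave of transcription, driven by FOXM1 and MYB-related complexes, supplies the cyclins, kinases and motor proteins of mitosis, and CDK inhibitors brake both steps. In the testis, spermatogonia and, before puberty, Sertoli cells divide by mitosis. Spermatocytes then use much of the same machinery for meiosis, so a mitotic gene can be abundant in cells that have left the mitotic cycle. In RNA of a whole organ, fewer cells of a type and less RNA per cell cannot be told apart.

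The targeted gene and the arrays that stood apart were looked at first. Prkar1a ranged from 8.04 to 8.33 in the 4 prKO arrays and from 8.36 to 8.64 in the 4 srKO arrays at 2 weeks, below all 8 WT arrays, which lay between 8.84 and 9.14 (log2 change -0.78 ± 0.07 SE, adjusted p = 4.5e-07, and -0.48 ± 0.07, adjusted p = 0.0022, by limma). At 2 months it fell by 0.30 in prKO (adjusted p = 0.0078 by limma), a call lost without prKO replicate 3 (-0.20) or with WT replicates 1 to 4 alone (-0.18). It went against the label in the arrays labelled srKO at 2 months (0.24 higher, adjusted p = 0.03 by limma, a call lost under centring, with only WT replicates 5 to 8 and without any of WT replicates 3 and 4 or srKO replicates 2, 3 and 4) and did not separate the arrays labelled lrKO from WT at either age. Whether the probe set lies in the floxed part of the gene is not given in the sources used here. WT replicate 4 at 2 weeks had a mean of 10.49 over 5 peritubular myoid markers, against a median of 8.72 in WT arrays of that age. In prKO replicate 1 at 2 months, the epididymal gene Adam7 read 11.7, against 4.25 and 4.47 in the other prKO arrays. It belongs to a list of 4 epididymal markers, whose mean per array was 5.05, 5.07 and 6.87 in these prKO arrays (lowest, median, highest). In WT of that age the mean was 5.00 to 5.54. The high reading was that of Adam7, and the other markers of the list did not rise on average in that array. The spread between arrays over the 33 members was also widest in prKO at 2 months, with a median SD of 0.27 and 0.80 for Ccnd2, against medians of 0.09 to 0.17 in the other 7 groups.

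Some promoter letters were more frequent in windows of the members than in all windows, though the windows of Cdkn1a, E2f1, Mad2l1 and Tyms held none of them. The genes were chosen without these letters, but the motifs searched include the cell cycle genes homology region, which is named for such genes. RefSeq promoter windows from 250 bases before to 50 after the start site (build GRCm38.p6) were at hand for 27 of the 34 genes, in 29 windows, and for 32851 windows in all. Both strands were searched for the CCAAT box (CCAAT), the cell cycle genes homology region or CHR (TTTGAA or TTTAAA) and an E2F site (spelled TTTGGCG, or with the letters TTTCGCG, or as TTTGCCG, or else as TTTCCCG). The CCAAT box was in 69% of the members' windows and 37.4% of all windows, and at least 2 copies were in 41.4% and 11.7%. A CHR was in 58.6% and 27.6%, a CHR together with a CCAAT box in 51.7% and 10.7%, and an E2F site in 20.7% and 6.7%. These are matches of letters, not sites shown to be used, and in Mcm6 a TTTGGCG overlaps a second E2F match on the other strand. The 130 bases before the start site are printed for 6 members, 5' to 3' on the gene's own strand. Every match that lies wholly inside the stretch is in capitals. These genes were taken because they cover replication, the central mitotic kinase and mitosis and went different ways with age: Mcm6, Cdk1 and Top2a fell, Plk1 and Aurka rose, and Cdc20 was not called.
Mcm6, chr1:128359706-128359835, minus strand: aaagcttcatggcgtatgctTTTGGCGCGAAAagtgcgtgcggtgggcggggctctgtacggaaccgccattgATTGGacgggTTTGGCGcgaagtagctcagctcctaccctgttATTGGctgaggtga
Cdk1, chr10:69352913-69353042, minus strand: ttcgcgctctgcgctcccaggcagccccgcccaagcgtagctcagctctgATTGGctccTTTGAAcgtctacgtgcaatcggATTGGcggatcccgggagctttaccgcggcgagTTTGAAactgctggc
Top2a, chr11:99024190-99024319, minus strand: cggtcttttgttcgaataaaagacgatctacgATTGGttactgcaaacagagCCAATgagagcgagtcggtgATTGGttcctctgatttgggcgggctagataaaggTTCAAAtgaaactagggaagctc
Cdc20, chr4:118437344-118437473, minus strand: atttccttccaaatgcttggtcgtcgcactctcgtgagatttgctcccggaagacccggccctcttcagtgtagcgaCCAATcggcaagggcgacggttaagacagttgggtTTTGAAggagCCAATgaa
Plk1, chr7:122159305-122159434, plus strand: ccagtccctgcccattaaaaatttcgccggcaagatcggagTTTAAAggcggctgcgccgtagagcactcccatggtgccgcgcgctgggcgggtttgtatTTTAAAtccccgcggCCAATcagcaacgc
Aurka, chr2:172370571-172370700, minus strand: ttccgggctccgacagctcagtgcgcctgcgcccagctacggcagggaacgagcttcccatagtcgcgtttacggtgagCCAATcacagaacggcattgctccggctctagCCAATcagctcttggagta
In the Mcm6 stretch, E2F matches lie beside CCAAT boxes, and no CHR match is present. The Cdk1 stretch opens inside an E2F match that begins at position -131 from the start site, so its letters there are not in capitals. Cdk1, Top2a and Cdc20 each hold CCAAT boxes with a CHR of the TTTGAA form, which reads TTCAAA in Top2a because the match is on the other strand. Plk1 holds a CCAAT box with TTTAAA, and Aurka holds 2 CCAAT boxes in this stretch, its CHR matches lying after the start site. Among these 6 printed members, CCAAT boxes thus stand before some that fell with age and some that rose. Other windows held none: those of Mad2l1, Tyms, E2f1 and Ccne1, which fell, Birc5 and Nusap1, which rose, and Cdkn1a, which was not called. No window was at hand for Ccnd1, Ccnd2, Ccna2, Foxm1, Aurkb, Tpx2 and Kif20a.

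Between 2 weeks and 2 months, WT testis lost signal for all 7 replication members, for the cyclins Ccnd1, Ccnd2, Ccna2 and Ccne1 and for mitotic genes such as Mki67, Top2a, Cdk1, Bub1 and Kif11. The mitotic genes Aurka, Plk1, Birc5, Nusap1 and Cenpe, the cyclin Ccnd3 and the factor Foxm1 rose. Of the 33 members 22 fell and 7 rose, where 81.6% of all 19007 genes were called (55.0% lower, 26.7% higher). The median change was -0.68 over the members and -0.24 over all genes tested. Because centring each array on its own median moved that all-gene value to -0.12, changes are best read against it. The 22 members that fell were all below the all-gene median, Cenpf by only 0.01, and no called member changed sign under centring or a second quantile normalization. Of the 29 calls, 29 held without any 1 of the arrays left out in turn.

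The proliferation marker Mki67, a coat protein of mitotic chromosomes, had a lowest, median and highest value of 10.54, 10.71 and 10.97 in WT at 2 weeks and of 8.91, 9.14 and 9.29 at 2 months. Top2a, the topoisomerase that untangles replicated DNA, read 10.38, 10.49 and 10.70 and then 9.54, 9.72 and 9.86. In both genes all 8 older arrays lay below all 8 younger ones. Mki67 fell by 1.56 ± 0.07 (adjusted p = 1.9e-21 by limma) and Top2a by 0.80 ± 0.06 (adjusted p = 3.7e-14 by limma).

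Replication genes fell together, 7 of 7, with a median of -1.72. The MCM proteins form the helicase that opens DNA at origins. Mcm2 went from 8.98, 9.18 and 9.37 to 6.49, 6.95 and 7.17 (lowest, median, highest), a change of -2.26 ± 0.09 (adjusted p = 2.7e-23 by limma). Mcm5 fell by 1.78 (from 9.28, 9.38 and 9.55 to 7.43, 7.58 and 7.86), Mcm3 by 1.77 (from 9.17, 9.29 and 9.53 to 7.30, 7.56 and 7.88) and Mcm6 by 1.72. The older arrays lay below the younger ones without overlap for each of these 4 subunits. Of the nucleotide-supplying enzymes, Tyms, which makes thymidylate, fell by 1.40 and Rrm2, a subunit of ribonucleotide reductase, by 0.84. The sliding clamp Pcna fell least, by 0.29, which is 0.06 below the all-gene median.

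The 3 D-type cyclins did not move as a block. Ccnd2, a D cyclin of spermatogonia and somatic cells, dropped from 9.30, 9.43 and 10.13 to 6.63, 7.00 and 7.19, a change of -2.61 ± 0.14 (adjusted p = 1.2e-18 by limma) and the steepest fall among the 33. Ccnd1 fell by 1.75 ± 0.13 from a range of 8.20 to 9.46, whose top value is the myoid-rich WT replicate 4 (the next was 8.58), to one of 6.60 to 6.97. Ccnd3 went the other way, from 6.97, 7.39 and 7.97 to 8.07, 8.32 and 8.62, a rise of 0.97 ± 0.10 (adjusted p = 1.7e-10 by limma). All 8 older arrays lay above the younger ones for Ccnd3 and below them for the other 2 cyclins.

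Among later cyclins and kinases, Ccna2, the cyclin of S phase and mitotic entry, fell by 2.10 ± 0.15 (from 8.93, 9.40 and 10.04 to 6.92, 7.39 and 7.57; adjusted p = 1.4e-15 by limma). Ccne1, which acts at the start of S phase, fell by 0.68. Cdk1, the kinase that drives entry into mitosis, fell by 0.46 ± 0.08 (from 8.15, 8.35 and 8.56 to 7.71, 7.89 and 7.98; adjusted p = 3.4e-06 by limma). The fall of Cdk1 is thus smaller than that of its partner Ccna2 on the log2 scale.

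Mitotic kinases split. Aurka, which matures centrosomes, rose from 8.06, 8.62 and 8.88 to 9.88, 10.01 and 10.13 (1.49 ± 0.10, adjusted p = 8.8e-16 by limma). Plk1, which acts at centrosomes, kinetochores and cytokinesis, rose from 8.40, 8.68 and 8.95 to 9.84, 9.99 and 10.12 (1.32 ± 0.08, adjusted p = 1.2e-16 by limma). Birc5, the survivin subunit of the chromosomal passenger complex, rose from 7.15, 7.56 and 7.76 to 8.18, 8.37 and 8.47 (0.87 ± 0.09, adjusted p = 3.8e-11 by limma). In all 3 the older arrays lay above the younger ones. Its partner kinase Aurkb fell by 0.46 and Tpx2, which activates Aurka on the spindle, by 0.59.

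The transcription factors split as well. Foxm1, an activator of mitotic genes, rose from 7.93, 8.11 and 8.33 to 8.95, 9.14 and 9.28 (1.02 ± 0.07, adjusted p = 3.9e-15 by limma), while E2f1, an activator of replication genes, fell by 1.09. Of the spindle checkpoint, Mad2l1 fell by 1.25 and Bub1 by 0.74, and neither Bub1b (-0.01) nor Cdc20 (0.14), the activator of the anaphase-promoting complex that the checkpoint holds back, was called. Cdc20 was called higher under centring (0.25, adjusted p = 0.03 by limma), and Bub1b, with a confidence interval of -0.16 to 0.13, changed sign there. Among kinesins and kinetochore proteins, the spindle motor Kif11 fell by 0.77 and Cenpf by 0.24, whereas Nusap1 and the kinetochore motor Cenpe rose by 0.28 and 0.26. The Nusap1 call was lost with WT replicates 1 to 4 alone (0.21, adjusted p = 0.098 by limma). Kif20a, a motor of cytokinesis, was not called (-0.08, and 0.04 under centring). The CDK inhibitor Cdkn1b, which restrains entry into S phase, fell by 1.48. Cdkn1a was not called (0.13, confidence interval -0.10 to 0.35), but was after a second quantile normalization (0.28, adjusted p = 0.016 by limma).

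**Figure D1:**
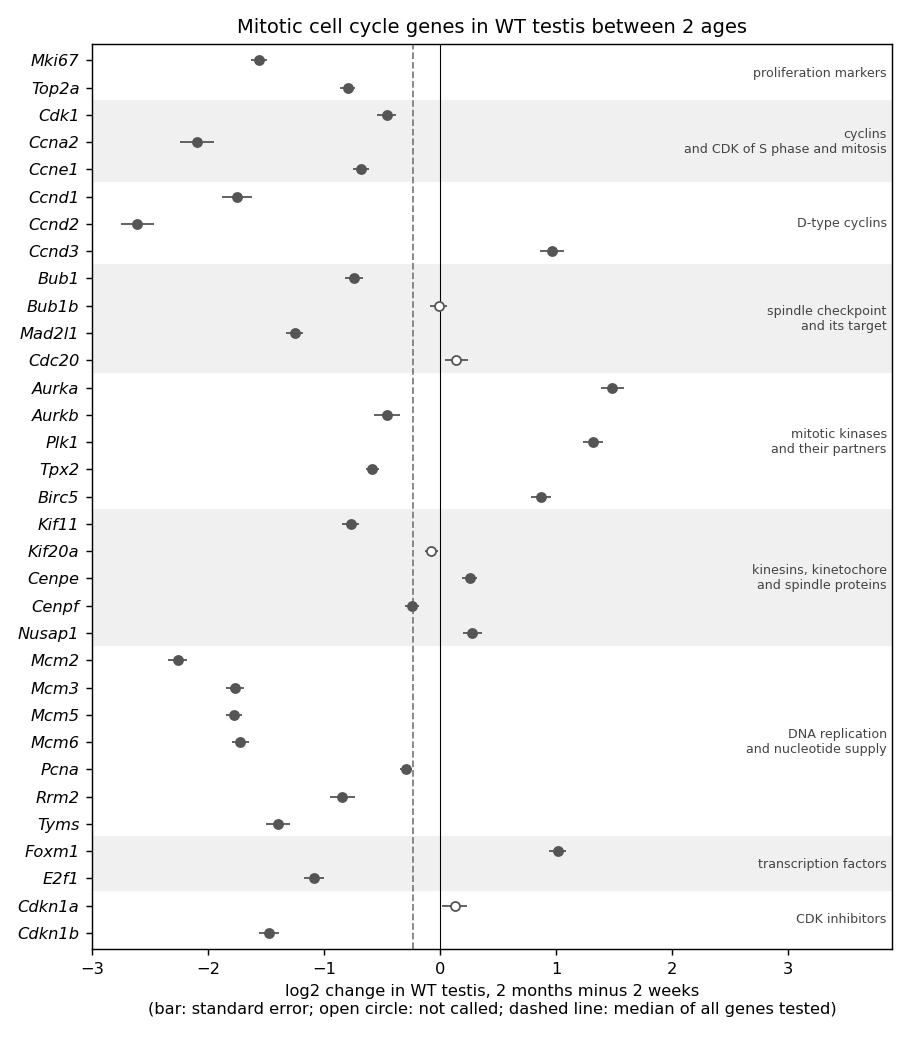
Log2 change of 33 mitotic cell cycle genes in WT testis from 2 weeks to 2 months (8 arrays at each age), grouped by role; horizontal bars are standard errors, filled points were called, open points were not, and the dashed line is the median of all genes tested at -0.24. The replication genes all lie at or left of that line, while Aurka, Plk1, Foxm1, Ccnd3 and Birc5 lie between 0.87 and 1.49.

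Other genes of the cycle, 82 tested from lists of replication, regulator, spindle and inhibitor genes, gave 20 rises and 52 falls with age, with a median of -0.34. Over all genes 26.7% rose and 55.0% fell. Mcm4 fell (-2.19), as did Melk (-1.94), a kinase of dividing cells, while the kinesin Kif2c rose by 1.99. Among 8 genes whose products serve meiosis in place of a mitotic relative, 5 rose and 2 fell, and Ccna1, the A-type cyclin of spermatocytes, rose by 4.28 from a range of 5.47 to 6.03 to one of 9.84 to 10.04. Some lists of cell type markers moved in the same comparison: the mean of 8 spermatid markers per WT array went from 5.87 to 6.09 at 2 weeks to 10.89 to 11.12 at 2 months. For 9 spermatocyte markers the median of the array means was 9.825 at 2 weeks (8.71 to 10.21) and 9.821 at 2 months (9.71 to 9.90). The mean of 14 spermatogonial markers went from 7.90 to 8.12 to 6.79 to 7.13, and that of 10 Sertoli markers from 9.35 to 9.58 to 7.87 to 8.14. Their part in the change of the members was not tested.

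At 2 weeks, prKO testis differed from WT in few members: Cdkn1a and Rrm2 rose and Bub1b fell, 3 of 33, where 10.5% of all genes were called (7.90% higher, 2.59% lower). The median change was -0.04 over the members and -0.01 over all genes. Cdkn1a, the p21 inhibitor induced by stress and differentiation signals, read 8.52, 8.64, 8.87 and 8.51 in the 4 prKO arrays against 7.05, 7.42 and 8.07 (lowest, median, highest) in WT. The groups did not overlap, and the rise was 1.13 ± 0.13 or 2.19-fold (adjusted p = 9.8e-06 by limma). Bub1b, a kinase-like part of the spindle checkpoint, read 7.78, 7.91, 8.06 and 7.95 against 8.16, 8.40 and 8.69. All 4 prKO arrays lay below WT, a fall of 0.48 ± 0.09 (adjusted p = 0.0019 by limma). Rrm2 read 7.80, 7.70, 7.71 and 7.85 against 7.15, 7.42 and 7.67 (0.36 ± 0.09, adjusted p = 0.01 by limma). The Rrm2 call was lost when its probe sets were averaged (0.20, adjusted p = 0.092), in the fit of all 8 groups (adjusted p = 0.065) and with WT replicates 1 to 4 alone (0.25, adjusted p = 0.15).

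The proliferation markers were not called in prKO at 2 weeks. Mki67 read 10.94, 10.65, 10.74 and 10.80 (0.07 ± 0.08, confidence interval -0.08 to 0.23), and Top2a read 10.33, 10.26, 10.41 and 10.34 (-0.16 ± 0.07, interval -0.31 to -0.02, adjusted p = 0.14 by limma). Cdk1 read 8.04, 8.37, 8.46 and 8.18 (-0.06 ± 0.10, interval -0.27 to 0.15). The prKO arrays overlapped WT in each of these 3 genes, although 3 of 4 lay below WT in Top2a. The 4 checkpoint members had negative changes, between -0.48 and -0.22, as did 10203 of all 19007 genes. Only Bub1b of the 4 passed the test. The count moved with the WT arrays used: 5 members were called without WT replicate 1, 6 without WT replicate 4 and 12 with WT replicates 5 to 8 alone. Because the adjustment runs over all genes, such a count can move with the number of all genes called. That number is not given here for altered fits, which holds for the member counts of all alternatives below. Of the other 82 cycle genes, the inhibitor Cdkn2b rose by 0.27 and 3 fell, where 7.90% of all genes rose and 2.59% fell. Among the falls were Gmnn (-0.30), which blocks relicensing of origins, and the mitotic brake Wee1 (-0.26). Ccna1 fell by 0.41 among the meiotic relatives. With WT replicates 1 to 4 alone the calls of Cdkn2b, Gmnn, Wee1 and Ccna1 were lost, Ccna1 at -0.26, and without prKO replicate 1 those of Cdkn2b, Gmnn and Ccna1. In the same arrays the mean of 6 Leydig markers was 10.19 to 10.58 against 8.23 to 9.28 in WT, and that of 6 macrophage markers 7.67 to 8.05 against 7.07 to 7.77. Endothelial markers averaged 8.03 to 8.50 against 7.55 to 8.23. Of the spermatocyte markers 9 of 9 had negative changes (median -0.42), of which 0 were called by limma and 3 had an unadjusted p under 0.05. That level was reached by 4986 of all 19007 genes. The part of these markers in the members' changes was not tested.

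In the arrays labelled srKO at 2 weeks, 0 of 33 members were called, where 0.873% of all genes were (0.784% higher, 0.0894% lower). The unadjusted p by limma was under 0.05 in 6 members and in 2848 of all 19007 genes. The median change was 0.05 over the members and 0.01 over all genes. The replication members had positive changes in 7 of 7, between 0.04 and 0.29, where 9858 of all 19007 genes had positive changes. The lowest p-values were those of Mcm2, at 9.51, 9.48, 9.58 and 9.24 (0.29 ± 0.08, adjusted p = 0.12 by limma), and Mcm6, at 9.77, 9.67, 9.87 and 9.66 (0.28 ± 0.08, adjusted p = 0.12 by limma). In both genes 3 of 4 arrays lay above the highest WT array. Mki67 (0.04 ± 0.08), Top2a (0.10 ± 0.07) and Cdk1 (-0.11 ± 0.10) were not called, and the members' intervals reached from -0.61 (Cdc20) to 0.55 (Ccnd1). Of the other cycle genes 4 of 82 rose, among them the phosphatase Cdc25a, which activates CDKs, by 0.45, and the origin proteins Orc1 and Cdc6 by 0.36 each. These 3 calls were each lost without srKO replicate 1 or 2. With array weights 7 members were called, without WT replicate 4 it was 1 and without srKO replicate 4 it was 2. The mean of 9 spermatocyte markers was 8.35 to 9.89 in these arrays and 8.71 to 10.2 in WT; its part was not tested.

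The arrays labelled lrKO at 2 weeks gave 0 of 33 members called, where 0.100% of all genes were (0.0368% higher, 0.0631% lower). The unadjusted p by limma was under 0.05 in 4 members and in 1715 of all 19007 genes. The lowest p-values belonged to Rrm2, which read 7.27, 7.24, 7.32 and 6.92 (-0.21 ± 0.09), and Mcm2, which read 8.85, 9.18, 8.94 and 8.89 (-0.20 ± 0.08), each at an adjusted p of 0.49 by limma. All 33 confidence intervals lay within 1 of zero on the log2 scale, from -0.69 (Ccna2) to 0.48 (Cdc20). Mki67 (-0.14 ± 0.08), Top2a (0.02 ± 0.07) and Cdk1 (0.16 ± 0.10) were not called. With WT replicates 1 to 4 alone 4 members were called. Spermatocyte markers averaged 9.88 to 10.3 in these arrays.

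Direct comparisons between lines at 2 weeks set Cdkn1a apart in prKO. It was higher by 0.92 ± 0.15 than in arrays labelled srKO (adjusted p = 0.00071) and by 1.24 ± 0.15 than in those labelled lrKO (adjusted p = 2.4e-05, both by limma). Bub1b was lower in prKO by 0.53 and 0.52. Against srKO, 1 member was higher and 5 lower, where 11.8% of all genes were called (6.90% higher, 4.85% lower), among them Mcm6 (-0.44 ± 0.09) and Mcm5 (-0.28 ± 0.09). The Mcm6 call held under all 18 alternatives and that of Mcm5 was lost under 11 of the 18 (-0.19, adjusted p = 0.15 by limma, without prKO replicate 4), and 3 members were called without prKO replicate 1 or 2 or srKO replicate 2. Against lrKO, 3 were higher and 4 lower, where 16.4% of all genes were called (10.4% higher, 6.00% lower), among them Ccna2 (0.70 ± 0.20), Rrm2 (0.57 ± 0.10), Cdc20 (-0.51 ± 0.16) and Mad2l1 (-0.36 ± 0.11). The Rrm2 call was lost with its probe sets averaged (0.24, adjusted p = 0.057 by limma), and that of Cdc20 in 8 of 18 alternatives. Only 4 members were called without prKO replicate 1 or 4 or lrKO replicate 4. Arrays labelled srKO were higher than those labelled lrKO in 4 members, all of DNA synthesis, where 1.95% of all genes were called (1.54% higher, 0.405% lower): Tyms (0.53 ± 0.12), Rrm2 (0.51 ± 0.10), Mcm2 (0.49 ± 0.10) and Mcm6 (0.42 ± 0.09). This count was 0 without lrKO replicate 4, the lowest lrKO array for Rrm2, Tyms and Mcm6, and Rrm2 was at 0.30 (adjusted p = 0.073 by limma) with its probe sets averaged. It was 1 without srKO replicate 2 or 3, and 2 without srKO replicate 1 or lrKO replicate 1 or 3.

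At 2 months prKO testis differed from WT in most members and in both directions: the cyclins Ccnd2 and Ccnd1 and both CDK inhibitors rose, and 16 members fell, among them the cyclin Ccnd3, the transcription factor Foxm1 and genes of replication and mitosis. That made 20 of 33, where 48.4% of all genes were called (26.0% higher, 22.4% lower). The median change was -0.23 over the members and 0.02 over all genes. The calls for Ccnd2, Cdkn1a, Ccnd1, Birc5, Kif11, Foxm1 and Bub1 held under every alternative tried, 7 of 20. Only 12 members were called without prKO replicate 3, the array that was lowest of the 3 in 17 members. The 3 arrays did not move together, since replicate 2 was lowest in 14 members and highest in 13. For the 5 mitotic kinases and their partners, the mean of replicate 2 was 9.196, above all WT arrays (8.993 to 9.186). That mean was 8.686 and 8.505 in replicates 1 and 3, below all WT arrays.

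Ccnd2 read 10.16, 8.56 and 9.31 in the 3 prKO arrays against 6.63, 7.00 and 7.19 (lowest, median, highest) in WT. All 3 lay above WT, and 1 exceeded the highest WT array of 2 weeks (10.13, in the myoid-rich WT replicate 4). The rise was 2.40 ± 0.21 or 5.28-fold (adjusted p = 4.3e-08 by limma), and 1.99 without replicate 1. Ccnd1 read 8.06, 6.94 and 7.25 against 6.60, 6.74 and 6.97, so that 2 of 3 arrays lay above WT. It rose by 0.64 ± 0.16 (adjusted p = 0.002 by limma), and by 0.32 without replicate 1, the array with high Adam7. Ccnd3 moved the opposite way, at 8.14, 7.78 and 8.07 against 8.07, 8.32 and 8.62 (-0.35 ± 0.12, adjusted p = 0.019 by limma; -0.24, adjusted p = 0.14, without replicate 2). The Ccnd3 call was also lost with array weights and with WT replicates 5 to 8 alone.

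Of the inhibitors, Cdkn1a read 8.89, 8.57 and 8.40 against 7.39, 7.59 and 8.06. The groups did not overlap, and the rise was 0.99 ± 0.14 or 1.99-fold (adjusted p = 1.2e-05 by limma). Cdkn1b read 6.61, 6.31 and 6.78 against 5.96, 6.04 and 6.40, with 2 of 3 arrays above WT (0.44 ± 0.13, adjusted p = 0.009 by limma). That call was lost without replicate 3 (0.34, adjusted p = 0.087) and with array weights (0.46, adjusted p = 0.053).

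**Figure D2:**
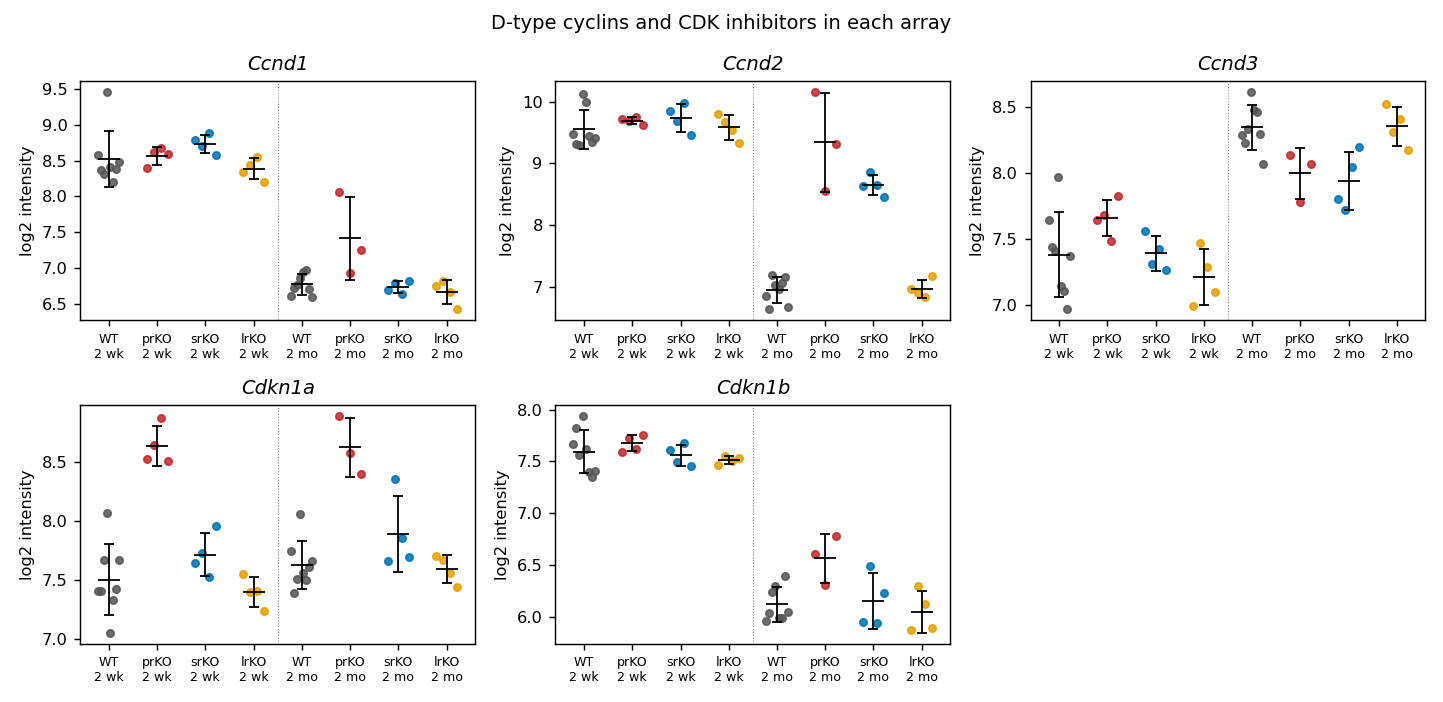
Log2 intensity of the 3 D-type cyclins and 2 CDK inhibitors in each of 39 arrays; points are arrays, horizontal marks group means and bars SDs, with the 2 ages separated by a dotted line. Ccnd2 sits between 8.45 and 10.16 in prKO and srKO at 2 months and between 6.63 and 7.19 in WT and lrKO, and Cdkn1a sits above all WT arrays of the same age in prKO at both ages.

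The largest falls in prKO at 2 months were in genes of mitosis. Birc5 read 7.72, 8.05 and 7.37 against 8.18, 8.37 and 8.47 (-0.64 ± 0.11, adjusted p = 6.8e-05 by limma). Kif11 read 8.25, 8.09 and 8.05 against 8.35, 8.78 and 9.01 (-0.63 ± 0.13, adjusted p = 0.00035 by limma). All prKO arrays lay below all WT arrays in both genes. Foxm1 read 8.62, 8.55 and 8.45 against 8.95, 9.14 and 9.28 (-0.58 ± 0.10, adjusted p = 0.00013 by limma). Bub1, the checkpoint kinase, read 9.32, 9.03 and 8.79 against 9.46, 9.54 and 9.64 (-0.48 ± 0.10, adjusted p = 0.00034 by limma). Plk1 read 9.70, 9.79 and 9.17 against 9.84, 9.99 and 10.12 (-0.44 ± 0.13, adjusted p = 0.0097 by limma), and its value fell to -0.25 (adjusted p = 0.15) without replicate 3, and the call was lost with WT replicates 1 to 4 alone (adjusted p = 0.056). In these 3 genes, too, no prKO array reached the WT range.

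Among the proliferation markers, Top2a read 9.46, 9.48 and 9.10 against 9.54, 9.72 and 9.86 (-0.36 ± 0.09, adjusted p = 0.0035 by limma), and -0.23 (adjusted p = 0.061) without replicate 3. Mki67 read 9.01, 8.62 and 8.98 against 8.91, 9.14 and 9.29, so that only 1 array lay below WT. Its fall of 0.28 ± 0.10 (adjusted p = 0.032 by limma) was lost without replicate 2 (-0.15, adjusted p = 0.27), without WT replicate 2 or 3 (adjusted p = 0.052 and 0.05) and with WT replicates 5 to 8 alone (-0.21, adjusted p = 0.17). It was also lost after a second quantile normalization (-0.24, adjusted p = 0.06 by limma) and with array weights (-0.27, adjusted p = 0.13). Cdk1 read 7.71, 8.33 and 7.67 against 7.71, 7.89 and 7.98 (0.04 ± 0.10, interval -0.18 to 0.26). Replicate 2 was above WT in Cdk1 and also in Aurka (10.33) and Aurkb (8.57), and replicates 1 and 3 were below WT in the latter pair. It also exceeded the highest WT array in Nusap1 (9.10) and Bub1b (8.55) and, by little, in Tpx2 (9.24) and Cdc20 (9.87). Without replicate 2 the Cdk1 value was -0.17.

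Replication members fell in 4 of 7: Mcm5 by 0.40, Mcm3 by 0.38, Mcm6 by 0.37 and Pcna by 0.22. Mcm5 read 7.34, 6.96 and 7.37 against 7.43, 7.58 and 7.86, and Mcm6 read 7.45, 7.24 and 7.45 against 7.49, 7.73 and 8.03. Both were below WT in all 3 arrays, and the calls of Mcm3, Mcm5 and Mcm6 were lost without replicate 2 (-0.31, -0.27 and -0.30) and that of Pcna without replicate 3. Pcna was also lost after a second quantile normalization (-0.13, adjusted p = 0.18 by limma), with array weights and with WT replicates 5 to 8 alone. Mcm6 was lost with WT replicates 1 to 4 alone (-0.23), Mcm3 with WT replicates 5 to 8 alone (-0.28), and both with array weights. Mcm2 (0.05), Tyms (0.19) and Rrm2 (0.27) were not called, and Rrm2 was high in replicate 3 alone (7.54, against 6.56 and 6.38). Smaller falls were Cenpf (-0.32), Mad2l1 (-0.32), Tpx2 (-0.28) and Kif20a (-0.24). Without replicate 3 their values were -0.22, -0.21, -0.18 and -0.08, and none of the 4 was called. The calls of Tpx2 and Kif20a were also lost without replicate 1, with array weights and with either set of 4 WT arrays. Members not called, such as Cdc20 (-0.25) and Cenpe (-0.23), had intervals between -0.48 (Cdc20) and 0.63 (Rrm2).

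**Figure D3:**
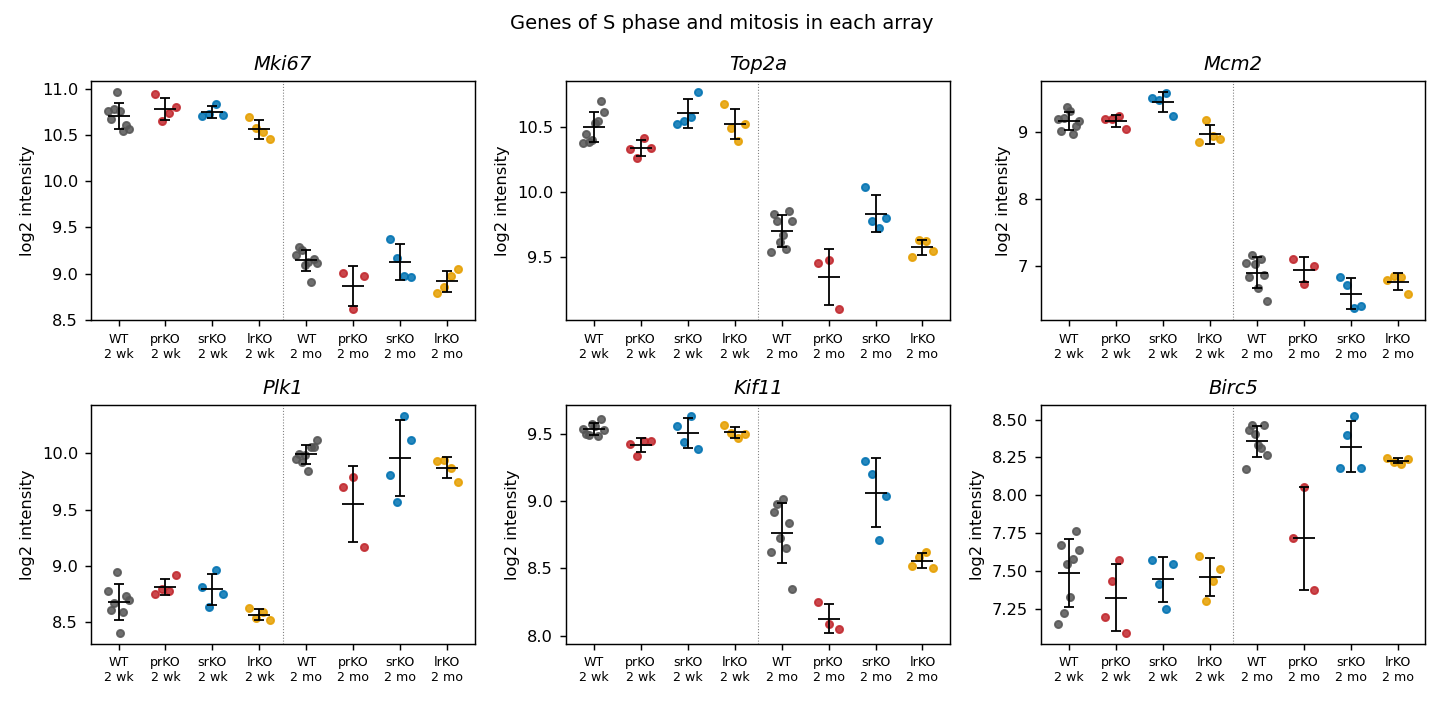
Log2 intensity in each of 39 arrays of Mki67 and Top2a, the helicase subunit Mcm2 and the mitotic genes Plk1, Kif11 and Birc5; points are arrays, horizontal marks group means and bars SDs. Mki67, Top2a, Mcm2 and Kif11 are lower at 2 months and Plk1 and Birc5 higher in WT, and Plk1, Kif11 and Birc5 in the 3 prKO arrays of 2 months lie below all 8 WT arrays.

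Other cell cycle genes were lower in prKO at 2 months in 38 of 82 and higher in 2, with a median of -0.25. Over all genes 22.4% were called lower and 26.0% higher. The flap endonuclease Fen1 fell by 1.19 (by 0.65 when its probe sets were averaged), Kif2c by 0.89 and the kinetochore gene Ska1 by 0.84. Cdk4, the partner kinase of the D cyclins, rose by 0.78 and Rbl2, a pocket protein that represses E2F targets, by 0.76. Of 8 meiotic relatives 6 fell. Cell type markers moved as well: the mean of 8 spermatid markers was 9.64 to 10.41 in prKO against 10.89 to 11.12 in WT, and that of 9 spermatocyte markers 9.22 to 9.67 against 9.71 to 9.90. Macrophage markers averaged 7.66 to 8.34 against 6.70 to 6.91, endothelial markers 7.29 to 8.32 against 6.34 to 6.68, Leydig markers 9.72 to 10.3 against 9.02 to 9.55, and Sertoli markers 7.94 to 8.54 against 7.87 to 8.14. Spermatogonial markers averaged 6.71 to 6.99 against 6.79 to 7.13. Markers within a list did not all move the same way. Of the Leydig markers 4 were called higher and 1 lower (-3.15), and of the Sertoli markers 6 higher and 2 lower. Spermatid markers had 7 called lower and 1 higher, and spermatogonial markers 5 lower and 3 higher. The part of these shifts in the members' changes was not tested.

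In the arrays labelled srKO at 2 months, only 2 of 33 members were called, where 25.4% of all genes were (14.7% higher, 10.8% lower): Ccnd2 rose and Ccnd3 fell. The median change was 0.02 over the members and 0.03 over all genes. Ccnd2 read 8.64, 8.86, 8.65 and 8.45 against 6.63, 7.00 and 7.19 in WT. All 4 arrays lay above WT, by 1.71 ± 0.19 or 3.27-fold (adjusted p = 1.9e-06 by limma). Ccnd3 read 7.80, 7.72, 8.05 and 8.20 against 8.07, 8.32 and 8.62, with 3 of 4 arrays below WT (-0.41 ± 0.11, adjusted p = 0.0074 by limma). Both calls held under every alternative tried, and the count was 4 without srKO replicate 1 or 3 and 5 without WT replicate 5. The directions rest on the labels, since Prkar1a was not lower in these arrays.

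Proliferation markers and Cdk1 were not called there. Mki67 read 9.38, 9.17, 8.98 and 8.97 (-0.02 ± 0.09, interval -0.21 to 0.17), Top2a read 10.04, 9.78, 9.72 and 9.80 (0.13 ± 0.08), and Cdk1 read 8.02, 8.13, 8.00 and 8.00 (0.18 ± 0.09, adjusted p = 0.18 by limma). All 4 Cdk1 values lay above the highest WT array (7.98), though by little. Cdkn1a was 0.26 ± 0.13 and Kif11 0.30 ± 0.11 (adjusted p = 0.15 and 0.06 by limma). Of the other cycle genes 5 of 82 rose, among them the checkpoint gene Bub3 (0.37), Cdk4 (0.34) and the kinase Pbk (0.34). In the other direction 4 fell, among them Fen1 (-1.30, and -0.77 with its probe sets averaged), Kif2c (-1.09) and Cdc25c (-0.48), a phosphatase that activates CDK1. Over all genes 14.7% were called higher and 10.8% lower. The Bub3, Pbk and Cdc25c calls were lost with WT replicates 5 to 8 alone, Pbk also without srKO replicate 1 or 2 and Cdc25c without srKO replicate 2. The mean of the spermatid markers was 9.06 to 10.17 in these arrays against 10.89 to 11.12 in WT, and that of macrophage markers 7.31 to 7.91 against 6.70 to 6.91. Endothelial markers averaged 6.99 to 7.40 against 6.34 to 6.68 and Leydig markers 9.43 to 9.996 against 9.02 to 9.55. Spermatocyte markers, at 9.75 to 10.06 against 9.71 to 9.90, overlapped WT. The part of these markers was not tested.

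The arrays labelled lrKO at 2 months had 0 of 33 members called, where 0.184% of all genes were (0.110% higher, 0.0737% lower), and 4 at an unadjusted p under 0.05. The all-gene count at that level is not given here. The median change was -0.12 over the members and -0.01 over all genes. The lowest p-values belonged to Cenpf and to Mcm6 (7.36, 7.61, 7.36 and 7.42; -0.31 ± 0.10, adjusted p = 0.4 by limma). Cenpf (-0.26 ± 0.08, adjusted p = 0.33 by limma) lay below WT in all 4 arrays. Mki67 was -0.23 ± 0.09, Top2a -0.13 ± 0.08, Cdk1 -0.09 ± 0.09 and Ccnd2 0.02 ± 0.19. The intervals of the members reached from -0.60 (Rrm2) to 0.41 (Ccnd2), so that a 2-fold change lay outside all 33.

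**Figure D4:**
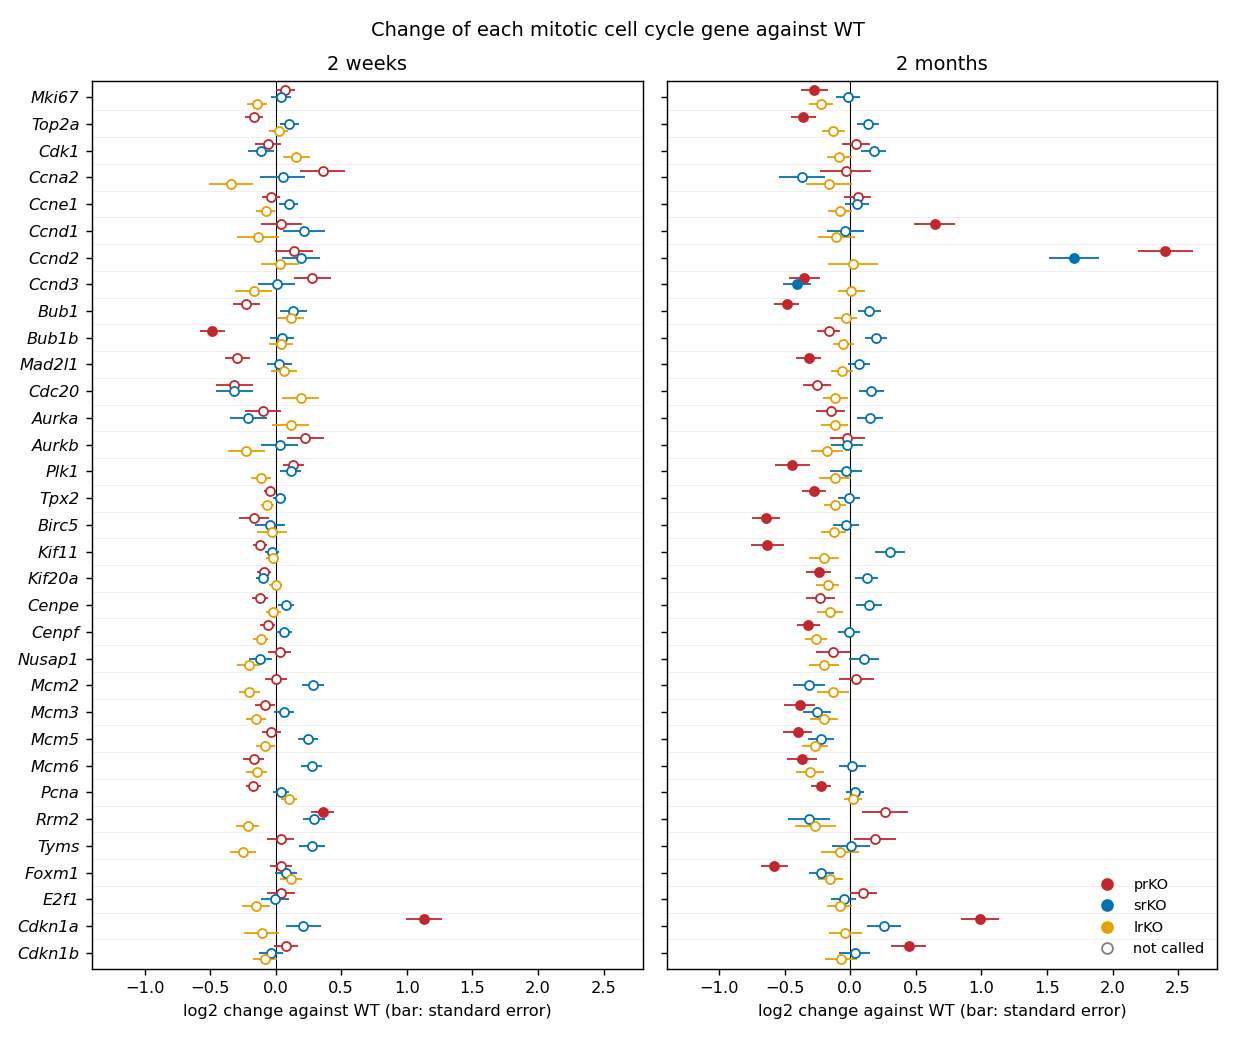
Log2 change against WT of each of 33 members in the 3 lines at 2 weeks and 2 months, by limma; bars are standard errors, filled points were called and open points were not. Ccnd2 stands at 2.40 in prKO and 1.71 in srKO at 2 months, Cdkn1a at 1.13 and 0.99 in prKO at the 2 ages, and the lrKO points are all open.

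The lines were then compared with each other at 2 months. Against arrays labelled srKO, prKO had 5 members higher and 13 lower, where 25.6% of all genes were called (13.4% higher, 12.1% lower). The largest differences were Kif11 (-0.93 ± 0.14), Bub1 (-0.63 ± 0.11) and Birc5 (-0.61 ± 0.12) downward and Cdkn1a (0.73 ± 0.16), Ccnd2 (0.69 ± 0.24) and Ccnd1 (0.68 ± 0.18) upward. The Ccnd2 difference (adjusted p = 0.036 by limma) was 0.29 (adjusted p = 0.26) without prKO replicate 1, and the call was also lost without prKO replicate 3 or srKO replicate 1, 3 or 4. Without prKO replicate 1 the Ccnd1 difference was 0.36 against srKO and 0.43 against lrKO, both still called. The count was 6 without prKO replicate 3, 11 without srKO replicate 3 or 4, and 2 in a fit of only these groups. Against arrays labelled lrKO, prKO had 5 members higher and 7 lower, where 45.6% of all genes were called (25.4% higher, 20.1% lower), led by Ccnd2 (2.38 ± 0.24), Cdkn1a (1.03 ± 0.16), Ccnd1 (0.75 ± 0.18), Birc5 (-0.52 ± 0.12), Bub1 (-0.45 ± 0.11) and Kif11 (-0.43 ± 0.14). Without prKO replicate 3 Birc5 was at -0.34, and the Kif11 call was lost there (adjusted p = 0.067 by limma) and with array weights (adjusted p = 0.051). Arrays labelled srKO differed from those labelled lrKO in 4 members, where 26.7% of all genes were called (15.4% higher, 11.2% lower): Ccnd2 (1.69 ± 0.22), Kif11 (0.50 ± 0.13) and Kif20a (0.29 ± 0.10) were higher and Ccnd3 (-0.42 ± 0.12) lower. Without srKO replicate 1 or lrKO replicate 1 that count was 2. The Kif20a call was lost under centring and in 6 of the 8 fits without 1 array, and that of Ccnd3 without srKO replicate 1 or 2 or lrKO replicate 1. The 3 lines share the WT arrays as controls in the comparisons with WT.

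Whether a line's change differed between the 2 ages was tested as an interaction. In prKO 8 members passed, where 28.2% of all genes did (15.8% higher, 12.3% lower): Ccnd2 changed more upward at 2 months by 2.26 ± 0.26 (adjusted p = 5.2e-08 by limma), and Ccnd3 (-0.63 ± 0.19), Foxm1 (-0.62 ± 0.13), Plk1 (-0.58), Kif11 (-0.52), Birc5 (-0.48), Mcm5 (-0.37) and Mki67 (-0.35) changed more downward. Cdkn1a was not among them, its rise being 1.13 at 2 weeks and 0.99 at 2 months. Calls for Ccnd2, Foxm1 and Kif11 held under every alternative, and the other 5 were each lost when 1 prKO array was left out, Ccnd3 (-0.52), Mcm5 (-0.24) and Mki67 (-0.23) without replicate 2 of 2 months and Plk1 (-0.38) and Birc5 (-0.31) without replicate 3. In the arrays labelled srKO 4 members passed, where 17.2% of all genes did (8.49% higher, 8.76% lower): Ccnd2 by 1.52 ± 0.25 (adjusted p = 2.4e-05 by limma), Rrm2 by -0.61 ± 0.19, Mcm2 by -0.60 ± 0.15 and Mcm5 by -0.47 ± 0.12. With WT replicates 5 to 8 alone the calls of Rrm2 (-0.57, adjusted p = 0.074 by limma) and Mcm5 (-0.35, adjusted p = 0.1) were lost, and Rrm2 was at -0.39, still called, with its probe sets averaged. In the arrays labelled lrKO 0 of 33 passed by limma, where 0.100% of all genes did (0.0526% higher, 0.0474% lower), and 1 had an unadjusted p under 0.05. For this comparison, too, the all-gene count at that level is not given here.

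Ccnd2 thus had the following order of group means at 2 months: prKO, srKO, then lrKO and WT, whose difference of 0.02 had an interval of -0.37 to 0.41. The order of prKO and srKO is less sure. Their difference was 0.29 without prKO replicate 1 (adjusted p = 0.26 by limma), and prKO replicate 2 (8.56) lay within the srKO range (8.45 to 8.86). At 2 weeks the 4 group medians of Ccnd2 lay between 9.43 and 9.76 and no line was called. The values of prKO and srKO at 2 months lay between those of WT at 2 months and the top of WT at 2 weeks, apart from prKO replicate 1.

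**Figure D5:**
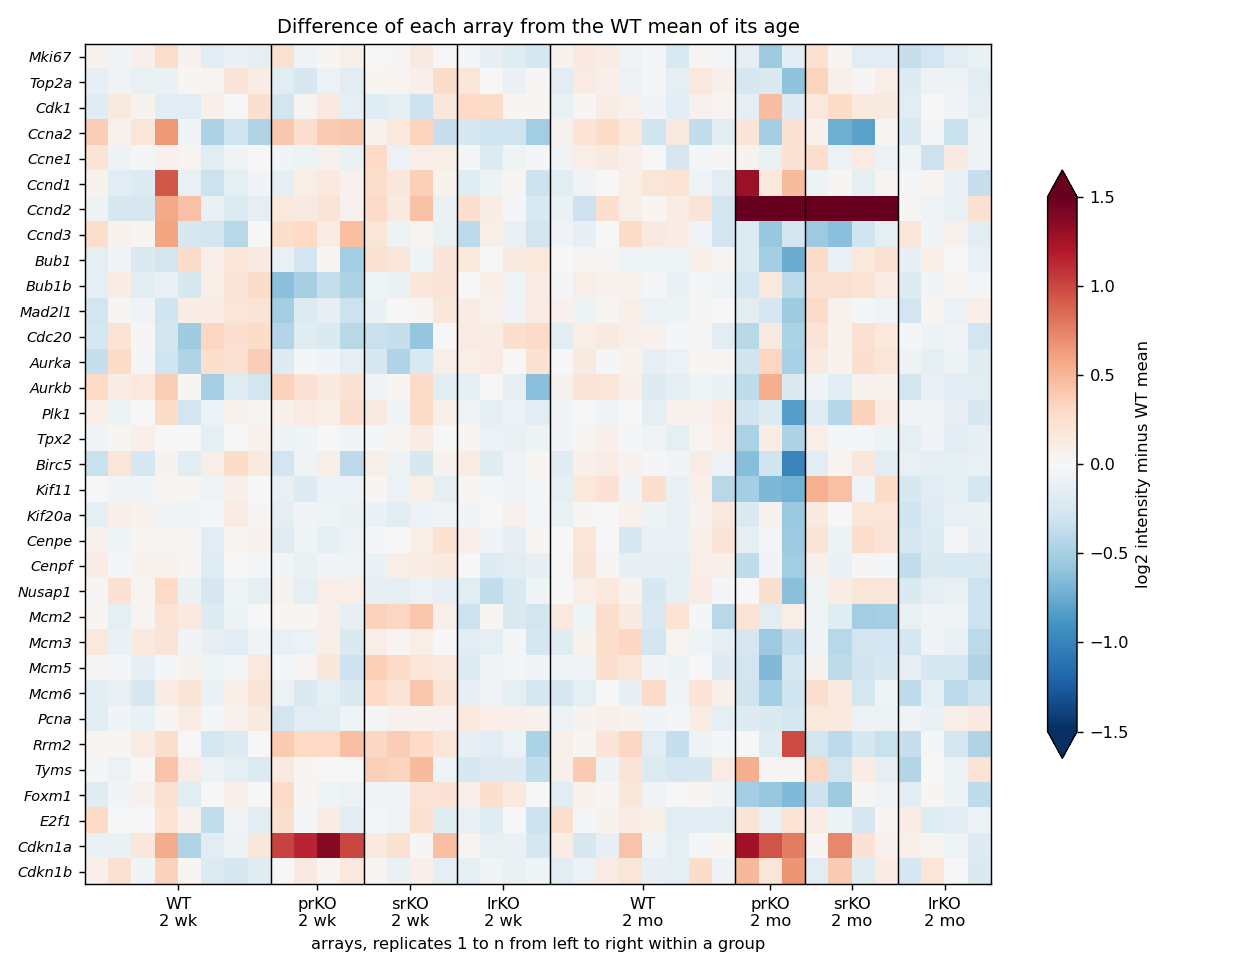
Difference of each of 39 arrays from the WT mean of its age (log2, red higher and blue lower, colours saturating at 1.5) for 33 members in the order of their roles. Ccnd2 is red in all prKO and srKO arrays of 2 months, and Cdkn1a is red in all prKO arrays of both ages. Among the 3 prKO arrays of 2 months replicate 3 is the lowest in 17 of 33 members and replicate 2 in 14.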

How the data were processed

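Whole-testis RNA of 39 mice was measured on Affymetrix arrays. Values in the deposited table are on a log2 scale, 1 per probe set and array, made by the authors with RMA per the submitters' processing notes. The version and software were not given in the sources used here. One extraction label names adrenal glands, the other labels whole testis. Of 41345 probe sets, 23521 have 1 gene symbol, 1814 several and 16010 none listed in the platform annotation used here; only the first kind was used, with the brightest probe set per gene. Genes were tested where the mean of at least 1 group exceeded the 25th percentile of all values (4.62), leaving 19007.

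At each age the 4 genotypes were fitted together with limma 3.58.1 in R 4.3.3. All 8 groups were fitted for the WT age comparison and for interactions. Tests were two-sided, adjusted over all genes tested, and the script was tested on simulated data. Values after ± are standard errors, and intervals are 95% confidence intervals. The number of arrays limits the precision; array medians ranged from 5.96 to 6.02 (2 weeks) and from 5.81 to 5.96 (2 months).

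Values are given for Mki67, Top2a, Cdk1, Prkar1a, up to 5 called members per direction against WT or between WT ages (the 2 lowest p-values where none was called), up to 3 per direction in other comparisons, and up to 3 other cycle genes; members named beyond that account for the whole list. Alternatives were filters, probe-set averaging, quantile normalization or centring, array weights, trend and robust settings, other sets of groups, a replicate block, fits without 1 array, and WT replicates 1 to 4 or 5 to 8 alone. The members, the lists and the WT subsets were chosen with earlier results of these data known.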

Additional observations from a re-analysis of the deposited data

Results flagged for a closer look

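In 11 of 231 sets of values of 1 gene in 1 group of 4 to 8 arrays, the highest or lowest array lay apart from the rest by Dixon's criterion; chance gives about 1 in 20, or 11.6 sets. Ccnd1 in WT replicate 4 at 2 weeks (9.46; the others 8.20 to 8.58) was the widest gap. At 2 weeks, high arrays were Mki67 (10.84) and Nusap1 (8.50) in srKO replicate 3. Low arrays of that age were Bub1 in the same array (10.21), Pcna in srKO replicate 1 (10.52), Ccna2 in prKO replicate 2 (9.65), Bub1 in lrKO replicate 2 (10.28), Mcm5 in lrKO replicate 1 (9.20) and Cenpf in WT replicate 6 (9.59). At 2 months Cdk1 was high in srKO replicate 2 (8.13) and Cenpf low in lrKO replicate 1 (9.16).

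A line's change differed between 2 weeks and 2 months by limma's interaction test in 12 cases. In prKO these were Ccnd2 (2.26), Ccnd3 (-0.63), Foxm1 (-0.62), Plk1 (-0.58), Kif11 (-0.52), Birc5 (-0.48), Mcm5 (-0.37) and Mki67 (-0.35). In arrays labelled srKO they were Ccnd2 (1.52), Rrm2 (-0.61), Mcm2 (-0.60) and Mcm5 (-0.47).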

How the results depend on the processing

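Of 135 called values of named genes, 83 stayed called under every alternative, 52 were lost under at least 1 and 0 changed sign. Numbers of members called moved by over 1.5 times as follows. With array weights they were 9 for prKO, 7 for srKO against WT at 2 weeks, 12 for prKO and 4 for srKO against WT at 2 months, 10 for prKO against srKO, 12 for prKO against lrKO and 10 for srKO against lrKO at 2 weeks, 13 for srKO against lrKO at 2 months and 10 for the srKO change between ages. In fits of only the groups compared they were 4 for srKO against WT at 2 months, 3 and 12 for prKO against srKO and lrKO at 2 weeks, 2 and 12 for prKO and lrKO against srKO at 2 months and 5 for the prKO change. Quantile normalization gave 4 (srKO against WT, 2 months), 3 (prKO against srKO, 2 weeks) and 7 (srKO against lrKO, 2 months); the fit of all 8 groups gave 5 and 8 for the first and last of these, the stricter filter 8 for the last, and trend and robust settings 5 for prKO at 2 weeks. WT replicates 1 to 4 alone gave 1 (srKO, 2 weeks), 4 (lrKO, 2 weeks) and 4 (srKO, 2 months), and WT replicates 5 to 8 alone 12 (prKO, 2 weeks). Leaving out each array gave 3 to 6, 0 to 2 and 0 to 0 for prKO, srKO and lrKO against WT at 2 weeks, and 12 to 22, 2 to 5 and 0 to 0 at 2 months. It gave 3 to 6, 4 to 7 and 0 to 6 for prKO against srKO, prKO against lrKO and srKO against lrKO at 2 weeks, 6 to 21, 8 to 16 and 2 to 5 at 2 months, 29 to 29 for WT age, and 6 to 11 and 4 to 6 for the prKO and srKO changes. The numbers of all genes called under these alternatives are not given here. These counts therefore do not show whether the members moved apart from other genes. The cause was not tested.

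Of 45 same-numbered pairs of arrays, 8 had a correlation of deviations above 0.1 (range -0.62 to 0.44). Pairs with different numbers were not compared, so these values cannot tell whether the replicate numbers pair the arrays. With the replicate block, 1 (srKO) and 2 (lrKO) members were called at 2 weeks, 12 (prKO) at 2 months, 7 for prKO against srKO at 2 months and 5 for the prKO change.

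Signs changed only for values not called: Mki67 in prKO (-0.013) and srKO (-0.046) at 2 weeks with the block or WT replicates 1 to 4, and in srKO at 2 months with WT replicates 5 to 8 (0.047) or without an array (-0.105 to 0.032); Top2a in lrKO at 2 weeks with weights (-0.011), WT replicates 5 to 8 (-0.074) or without an array (-0.03 to 0.065); Cdk1 in prKO without an array at 2 weeks (-0.128 to 0.012), and at 2 months with centring (-0.007) or without an array (-0.169 to 0.159); and Prkar1a in lrKO with WT replicates 5 to 8 (-0.051 at 2 weeks, -0.084 at 2 months).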
